A study of Homo sapiens with 15 samples.

Results

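Transcript levels of 10 genes that encode cell junctions of heart muscle were followed through the differentiation of the established embryonic stem cell line H1 towards cardiomyocytes. The genes were taken by symbol from the 48777 genes in the deposited tables: the connexins GJA1, GJA5 and GJC1, the cadherin CDH2 and its partner CTNNA3, and the desmosomal genes DSP, PKP2, JUP, DSG2 and DSC2. All 10 were found once in the tables, and all 10 passed the filter on low counts in each of the comparisons below. Total RNA depleted of ribosomal RNA was sequenced on days 0, 4, 9, 11 and 20, in 3 biological replicates each, which makes 15 libraries. Day 0 libraries were from undifferentiated H1 cells kept in Nutristem medium. Cells of the later days were on a mixed coat of the laminins LN-521 and LN-221; the labels name both laminins for day 0 as well, whereas the deposited sample table lists LN-521 alone for that day. The differentiating cells received RPMI medium with B27 lacking insulin, the GSK3 inhibitor CHIR99021 to start Wnt signalling and later the Wnt secretion inhibitor IWP2, and the protocol texts differ on whether CHIR99021 came before or after the day 4 harvest. The methods list day 7 in place of the day 9 of the labels, and the labels were followed. All libraries come from a single cell line, and the cells were not sorted.

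Changes between days are given as log2 fold change ± standard error, with the Benjamini-Hochberg adjusted p of the quasi-likelihood test of edgeR on counts, called at an adjusted p under 0.05. Library totals ranged from 11990302 to 33469703 counts. Day 20 replicate 2 stood apart with an RNA integrity number of 6.1, against 8.8 to 10.0 in the other libraries. It had a median of 10.95 reads per kilobase on 174 genes with at most 2 reads summed over all libraries up to day 11. That median was 0.678 in day 20 replicate 3 and 0 in day 20 replicate 1. In the libraries up to day 11 a median of 0 followed from the way these genes were picked. A gene of 57 bases took 20.0% of all TPM (a level per transcript length, scaled to the library) in day 0 replicate 3 and 17.0% in day 9 replicate 1, and at most 2.54% elsewhere, which lowers every other TPM value of those 2 libraries by that share. The count tests do not share this effect, because that gene held at most 0.37% of the counts.

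Neighbouring cardiomyocytes meet at the intercalated disc. Gap junctions there are channels made of connexins that pass current from cell to cell, and desmosomes and adherens junctions anchor the intermediate filaments and the actin of one cell to those of the next. Many of the same proteins hold epithelial sheets together, and human embryonic stem cells themselves grow as an epithelium joined by the E-cadherin CDH1, so a junction gene may be high before any heart cell is present. In the working heart GJA1 (connexin 43) is the main ventricular connexin, GJA5 (connexin 40) belongs to the atria and the conduction system and also to arterial endothelium, and GJC1 (connexin 45) is found in the early heart and the nodes.

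The 250 bases before the transcription start that RefSeq lists first (GRCh38.p14, 5′ to 3′ on the strand of the gene) are shown for the members with the largest fall and the largest rise from day 0 to day 20, GJA1 and CTNNA3, and for DSG2, which did not pass the test between any neighbouring days. Capitals mark matches on either strand to the AP-1 motif TGANTCA, the T-box motif AGGTGT, the NKX2-5 motif TNAAGTG or the GATA motif AGATAA, and no 2 matches overlapped.
GJA1, chr6:121435396-121435645, plus strand: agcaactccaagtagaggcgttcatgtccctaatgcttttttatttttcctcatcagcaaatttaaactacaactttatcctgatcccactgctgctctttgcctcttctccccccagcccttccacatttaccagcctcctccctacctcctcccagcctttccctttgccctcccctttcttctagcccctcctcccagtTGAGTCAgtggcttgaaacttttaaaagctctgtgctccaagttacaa
CTNNA3, chr10:67696196-67696445, minus strand: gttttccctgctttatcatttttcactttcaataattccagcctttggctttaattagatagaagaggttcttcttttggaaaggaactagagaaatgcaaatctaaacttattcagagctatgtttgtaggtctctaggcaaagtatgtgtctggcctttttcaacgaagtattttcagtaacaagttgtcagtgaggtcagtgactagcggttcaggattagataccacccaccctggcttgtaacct
DSG2, chr18:31497927-31498176, plus strand: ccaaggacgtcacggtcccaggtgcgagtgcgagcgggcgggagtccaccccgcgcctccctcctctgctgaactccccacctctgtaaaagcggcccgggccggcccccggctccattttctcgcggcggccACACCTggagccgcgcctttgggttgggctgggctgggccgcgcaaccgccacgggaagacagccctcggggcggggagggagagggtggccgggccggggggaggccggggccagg
Of 27305 such windows in the table, 6.60% held the AP-1 letters, 9.66% the T-box letters, 8.84% the NKX2-5 letters and 9.37% the GATA letters. GJA1 held 1 AP-1 match, DSP and DSG2 held 1 T-box match each, and the windows of GJA5, JUP, DSC2, CDH2 and CTNNA3 held none of these. GJC1 and PKP2 had no entry. The CTNNA3 window lay far inside the gene, whose 5′ end is at 67763637, so it precedes an internal start and not the outermost one. Nearer to the 5′ end, the windows of DSP (7541421 to 7541670) and CDH2 (28177131 to 28177380) also lay inside their genes. The 5′ ends of these genes are at 7541338 and 28177946. The windows differed more in CpG dinucleotides, of which the median window of all genes held 11. GJA1 held 1, CTNNA3 2 and GJA5 3, whereas DSC2 held 12, JUP and CDH2 17 each, DSG2 26 and DSP 33. The 3 members whose windows held the fewest CpG were thus a gene that fell and a pair that rose.

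The 10 genes took different courses over the days, also within the connexins and within the desmosomal genes. GJA1 started as one of the most abundant transcripts of the stem cells and fell, while DSP, PKP2, CDH2 and, from a much lower start, CTNNA3 and GJA5 rose. JUP rose by day 9, and the day means of GJC1, DSG2 and DSC2 stayed within 2-fold of each other. By mean TPM, day 0 was led by GJA1 (4692 TPM) and then DSG2 (290.4 TPM), with CTNNA3 the lowest (0.96 TPM). On day 20 the highest were DSP (654 TPM), CDH2 (615 TPM) and GJA1 (554 TPM), and the lowest was GJC1 (32.8 TPM).

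**Figure D1:**
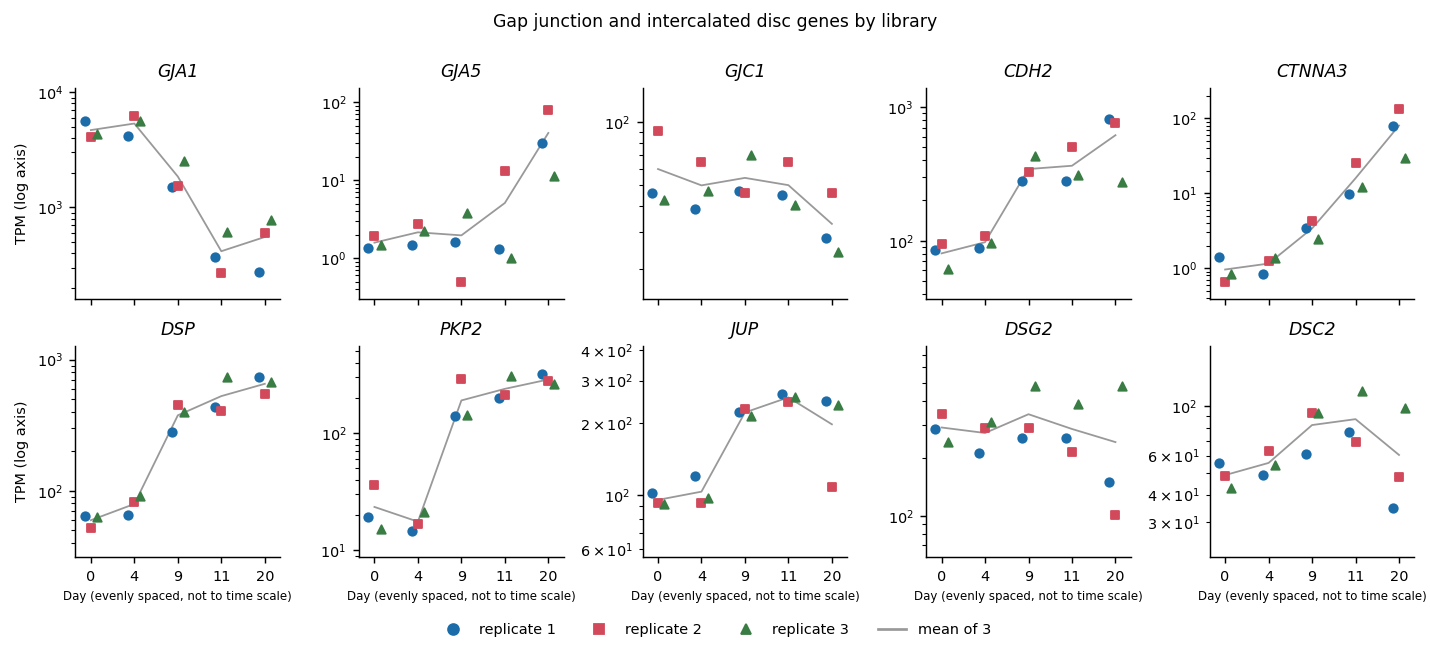
TPM (log axis) of each of the 10 genes in each library, by day; symbols mark the 3 replicates of a day, whose numbers do not link libraries of different days, and the grey line joins the day means. GJA1 fell from a mean of 4692 TPM on day 0 to 417 TPM on day 11, CTNNA3 rose from 0.96 to 80.3 TPM by day 20, and DSG2 replicates of different days overlapped throughout.

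GJA1 (ENSG00000152661, chromosome 6 of GRCh38, 121435595 to 121449727, plus strand) encodes connexin 43. The day 0 replicates held 5590, 4106 and 4382 TPM and those of day 4 held 4150, 6256 and 5645 TPM, ranking 5th and 7th among all genes by mean TPM. On day 9 the replicates held 1506, 1530 and 2528 TPM, on day 11 they held 369, 268 and 614 TPM, and on day 20 they held 276, 600 and 785 TPM. Every day 9 replicate lay below every replicate of days 0 and 4, and every day 11 and day 20 replicate lay below every day 9 replicate. The log2 fold change was −1.50 ± 0.26 (adjusted p = 0.0019) from day 4 to day 9 and −2.20 ± 0.38 (adjusted p = 0.033) from day 9 to day 11. From day 11 to day 20 it was 0.27 ± 0.49 (adjusted p = 0.835), and day 20 remained 10.1-fold below day 0 (log2 fold change −3.33 ± 0.49, adjusted p = 0.00265). In bulk RNA, fewer cells that express a gene and less of its RNA per cell cannot be told apart. Within the sequencing lanes 1, 2 and 5, each of which held 1 library of days 4, 9, 11 and 20, the differences in log2 CPM (counts scaled to library size) ran from −2.01 to −0.74 for day 9 against day 4 and from −2.87 to −1.19 for day 11 against day 9. The call from day 9 to day 11 was lost in 4 of the 6 fits that left out a replicate, with adjusted p-values of 0.128 and 0.0984 without day 9 replicate 1 or 3 and of 0.124 and 0.0556 without day 11 replicate 1 or 2.

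GJA5 (ENSG00000265107, chromosome 1, 147756199 to 147773362, minus strand), connexin 40, stood at 1.36, 1.90 and 1.49 TPM on day 0, at 1.47, 2.75 and 2.22 TPM on day 4 and at 1.60, 0.50 and 3.78 TPM on day 9. The day 11 replicates held 1.29, 13.0 and 1.02 TPM, and those of day 20 held 30.0, 79.7 and 11.3 TPM. The rise on day 11 was therefore a matter of replicate 2, and on day 20 the replicates were far apart while all 3 lay above day 0. Over the whole course GJA5 rose by a log2 fold change of 4.27 ± 0.62 (adjusted p = 0.00246). The step from day 11 to day 20 did not pass the test (log2 fold change 2.74 ± 1.02, adjusted p = 0.227), and it was 4.78 without day 11 replicate 2 (adjusted p = 0.0938). Day 11 replicate 2 was also the library highest in GJA4 (connexin 37, a partner of connexin 40 in arterial endothelium), with 38.7 TPM against 4.96 and 3.35 TPM in the other day 11 replicates. The 9 endothelial markers summed to 339 TPM in it, against 194 and 151 TPM, and the 10 cardiomyocyte markers to 23936 TPM, against 7374 and 5541 TPM. The endothelial sum was already between 154 and 196 TPM on day 0, when TEK alone held 51.6, 94.3 and 44.6 TPM. In the day 11 replicates TEK held 90.9, 85.0 and 78.2 TPM, whereas CDH5 held 9.65, 52.5 and 1.44 TPM and PECAM1 held 1.16, 12.7 and 0.62 TPM. The part of either cell type in the GJA5 value was not tested. In reads per kilobase, GJA5 had 186, 313 and 50.1 on day 20, well above the 0, 10.95 and 0.678 read per kilobase on silent genes in the same libraries. Exons of GJA5 overlap a noncoding gene on the opposite strand, and whether the counting used strand is not stated.

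GJC1 (ENSG00000182963, chromosome 17, 44798448 to 44830816, minus strand), connexin 45, kept to a narrow range. Its replicates lay between 42.4 and 91.3 TPM on day 0, between 38.5 and 64.6 TPM on day 4, between 46.1 and 70.0 TPM on day 9, between 40.5 and 64.9 TPM on day 11 and between 24.0 and 46.2 TPM on day 20. No neighbouring days differed at the threshold. From day 11 to day 20 the fitted change was −0.79 ± 0.28 (adjusted p = 0.206). The log2 CPM replicates of these days did not overlap, and the lane differences ran from −1.38 to −0.39. Between the first and last day GJC1 fell by 1.16 ± 0.34 on the log2 scale (adjusted p = 0.0364), with TPM replicates that overlapped and log2 CPM replicates that did not. That call was lost with upper-quartile scaling, with scaling by library size, with no filter, with limma and in 4 of 6 fits that left out a replicate, where the adjusted p ran up to 0.119.

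The connexins were also set side by side as shares of the summed TPM of all 21 connexin genes in the tables, a measure that does not depend on the scaling between libraries. GJA1 made up 98.1% ± 0.82 (SD, n = 3) on day 0 and 98.5% ± 0.085 on day 4. Its share was 95.4, 95.9 and 96.4% in the day 9 replicates, 83.5, 65.4 and 87.5% on day 11 and 48.4, 62.5 and 81.0% on day 20. All day 9 replicates lay below day 4 and all day 11 replicates below day 9 (exact two-sided permutation test, p = 0.1 for each, the smallest p that 3 replicates against 3 allow, and 0.2 after adjustment over the 4 pairs of days), whereas days 11 and 20 overlapped (exact permutation p = 0.2). The summed connexin TPM itself fell from between 4227 and 5670 on day 0 to between 410 and 701 on day 11, and lay between 570 and 970 on day 20.

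**Figure D2:**
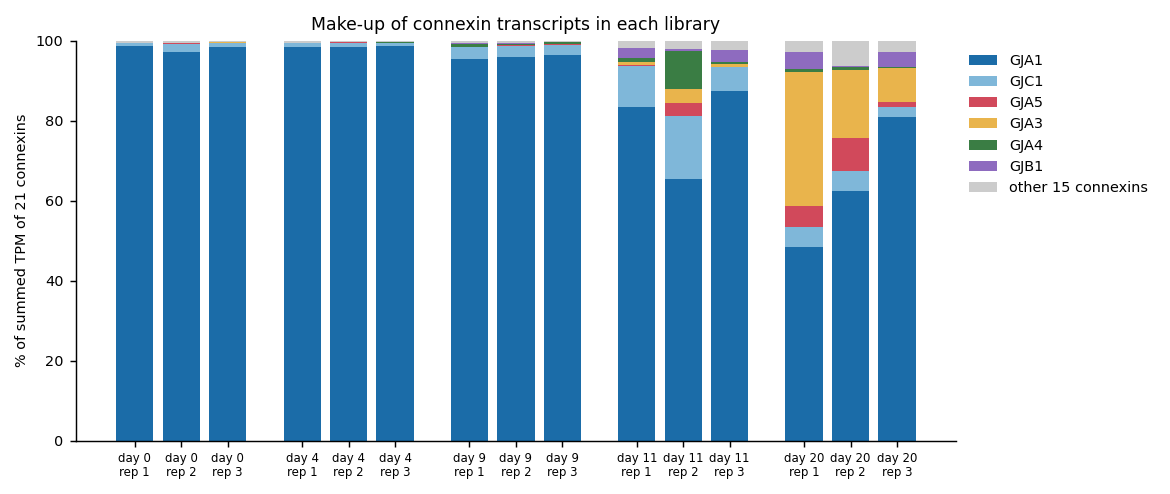
Share (%) of the summed TPM of 21 connexin genes taken by 6 of them and by the other 15, in each of the 15 libraries (stacked bars from 0 to 100%). GJA1 held over 95% up to day 9, GJA4 stood out in day 11 replicate 2, and GJA3 took 33.6, 16.9 and 8.46% in the day 20 replicates.

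GJC1 held 10.2, 15.9 and 5.78% of connexin TPM in the day 11 replicates, against 0.81 to 2.16% on day 0, while its own TPM replicates on these days overlapped. Day 11 was not tested against day 0. GJA5 held 5.26, 8.31 and 1.16% on day 20. The connexin that gained most was not a member. GJA3 (connexin 46, best known from the lens) stood at 2.98, 14.6 and 4.38 TPM on day 11 and at 191, 163 and 82.0 TPM on day 20, and after a fall from day 4 to day 9 (log2 fold change −2.02 ± 0.28, adjusted p = 0.000565) it rose from day 9 to day 11 (3.39 ± 0.66, adjusted p = 0.0488) and from day 11 to day 20 (4.18 ± 0.66, adjusted p = 0.0304). On day 20 it thus exceeded GJA5 and GJC1 in every replicate by TPM. Of the 18 other connexins, 10 could be tested from day 4 to day 9, of which 2 rose and 4 fell (24.3% and 24.7% of all genes tested). GJB1 (connexin 32, the main connexin of hepatocytes) rose most, by a log2 fold change of 4.79 ± 0.61 (adjusted p = 0.000363), and GJB5 fell most, by 3.61 ± 0.32 on the log2 scale (adjusted p = 5.92e-05). Between days 0 and 20, 3 of 10 rose and none fell (16.1% and 11.3% of all genes), led by GJB2 (connexin 26, log2 fold change 7.26 ± 0.86, adjusted p = 0.00105) and GJB1 (7.03 ± 1.08, adjusted p = 0.00304). On day 20 GJB1 stood at 23.8, 3.99 and 37.5 TPM and the sum of the 12 markers of yolk sac and hepatic endoderm at 24262, 957 and 27352 TPM, both lowest in replicate 2. GJB2 stood at 8.82, 5.04 and 11.7 TPM. In replicate 2 these low values lay near the background, as GJD4, with 0 counts in every other library, reached 3.87 TPM there.

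CDH2 (ENSG00000170558, chromosome 18, 27932879 to 28177946, minus strand), N-cadherin, is the cadherin of the cardiac adherens junction. Its replicates held 85.6, 94.4 and 61.2 TPM on day 0, 87.6, 109 and 95.7 TPM on day 4, and 278, 325 and 427 TPM on day 9. They held 279, 499 and 312 TPM on day 11 and 818, 752 and 274 TPM on day 20. The step lay between days 4 and 9, without overlap (log2 fold change 1.84 ± 0.19, adjusted p = 0.000109), and the lane differences in log2 CPM ran from 1.40 to 2.25. From day 9 to day 11 the fitted change was 0.02 ± 0.26 (adjusted p = 0.979), and on day 20 replicate 3 lay below all replicates of days 9 and 11 while the other 2 lay above all of them. Day 20 exceeded day 0 by a log2 fold change of 2.67 ± 0.43 (adjusted p = 0.00355).

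CDH1, the E-cadherin of the stem cell epithelium, went the other way between days 4 and 9. It stood at 695, 439 and 641 TPM on day 0, at 850, 869 and 810 TPM on day 4 and at 81.4, 93.0 and 193 TPM on day 9, a fall of 2.75 ± 0.34 on the log2 scale (adjusted p = 0.000477). The log2 ratio of CDH2 to CDH1 (1 TPM added to each) was −2.86 ± 0.59 (SD, n = 3) on day 0 and −3.10 ± 0.14 on day 4, and it was 1.57 ± 0.37 on day 9 and 2.33 ± 0.27 on day 11. The replicates did not overlap between days 4 and 9 or between days 9 and 11 (exact two-sided permutation test, p = 0.1 for each, 0.2 after adjustment over 4 pairs). On day 20 the ratio was 2.91, 5.32 and −0.07, and replicate 3 held 287 TPM of CDH1 beside 274 TPM of CDH2.

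**Figure D3:**
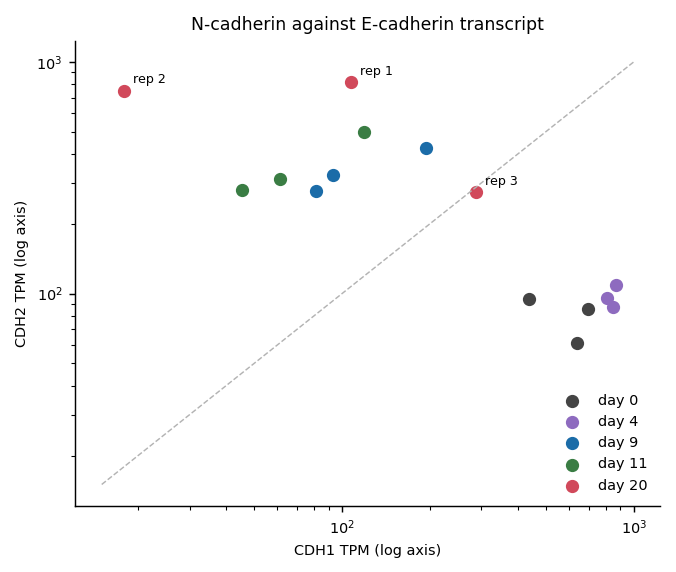
CDH2 against CDH1 in TPM (both axes logarithmic), 1 point per library, coloured by day; the dashed line marks equal TPM. All libraries of days 0 and 4 lie below the line, all of days 9 and 11 above it, and the day 20 replicates range from 17.8 to 287 TPM of CDH1.

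CTNNA3 (ENSG00000183230, chromosome 10, 65912457 to 67763637, minus strand) encodes αT-catenin, which links cadherins to actin at the mixed junctions of the intercalated disc and is restricted to few tissues, heart and testis among them. It was the member with the largest fitted rise from day 0 to day 20. The replicates held 1.40, 0.65 and 0.83 TPM on day 0, 0.82, 1.25 and 1.38 TPM on day 4, 3.49, 4.26 and 2.44 TPM on day 9, 9.87, 25.6 and 12.2 TPM on day 11 and 79.2, 132 and 29.7 TPM on day 20. From day 9 on, every replicate of a day lay above every replicate of the preceding day. The log2 fold change was 1.57 ± 0.26 (adjusted p = 0.00138) from day 4 to day 9 and 2.17 ± 0.38 (adjusted p = 0.037) from day 9 to day 11. It was 2.13 ± 0.52 from day 11 to day 20, which did not pass (adjusted p = 0.0914), and 6.06 ± 0.56 over the whole course (adjusted p = 0.000475), a 66.8-fold rise. Without day 20 replicate 3, the change from day 11 to day 20 was 2.46 (adjusted p = 0.047), and with all replicates it was called by DESeq2 (1.97, adjusted p = 0.00519) and in the fit of all 15 libraries (2.08, adjusted p = 0.00657). The change from day 9 to day 11 lost its call in 4 of 6 fits that left out a replicate, with adjusted p-values of 0.175, 0.0558 and 0.148 without day 9 replicates 1, 2 or 3 and of 0.0623 without day 11 replicate 3. In reads per kilobase CTNNA3 had 492, 519 and 132 on day 20, above the 0, 10.95 and 0.678 of the silent genes. Its exons overlap those of LRRTM3 on the opposite strand over 177 bases.

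Of the 9 other catenins and junction linkers, none rose at the threshold in any comparison, 6 fell from day 4 to day 9 (24.7% of all genes) and 2 from day 0 to day 20 (11.3% of all genes). Over all genes, 24.3% rose from day 4 to day 9 and 16.1% from day 0 to day 20. The largest falls from day 4 to day 9 were in CXADR, a tight junction and intercalated disc protein (log2 fold change −1.75 ± 0.26, adjusted p = 0.000899), and CTNNA2, the neural α-catenin (−1.57 ± 0.19, adjusted p = 0.000277), and both were also the 2 that were lower on day 20 than on day 0 (CXADR −1.94 and CTNNA2 −2.58, adjusted p = 0.00268 and 0.0154). The median log2 fold change of the 9 was −0.52 from day 4 to day 9, against 0.01 over all genes tested.

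Among the desmosomal genes, DSP (ENSG00000096696, chromosome 6, 7541338 to 7586714, plus strand) encodes desmoplakin, which ties the plaque to intermediate filaments. Its replicates held 63.7, 51.7 and 63.4 TPM on day 0 and 64.8, 81.6 and 91.4 TPM on day 4. They held 281, 448 and 400 TPM on day 9, 436, 405 and 741 TPM on day 11 and 742, 549 and 671 TPM on day 20. Days 4 and 9 did not overlap, with a log2 fold change of 2.26 ± 0.19 (adjusted p = 4.28e-05) and lane differences in log2 CPM from 1.83 to 2.59. The later neighbouring days overlapped and did not pass the test, although the change from day 9 to day 11 passed with the plate number of the labels as a block (0.65, adjusted p = 0.0225). Day 20 exceeded day 0 by a log2 fold change of 3.22 ± 0.39 (adjusted p = 0.00114). The day 4 TPM replicates lay above those of day 0, but the fitted change of 0.32 ± 0.19 (adjusted p = 0.885) did not pass.

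PKP2 (ENSG00000057294, chromosome 12, 32790745 to 32896798, minus strand), plakophilin 2, is an armadillo protein that recruits desmoplakin and is the plakophilin of heart muscle. It stood at 19.3, 35.9 and 15.1 TPM on day 0, at 14.5, 16.8 and 21.4 TPM on day 4 and at 140, 289 and 142 TPM on day 9. This step of a log2 fold change of 3.44 ± 0.28 (adjusted p = 6.24e-05, lane differences in log2 CPM from 3.11 to 3.63) was the largest of any member between neighbouring days. On day 11 it held 198, 211 and 309 TPM and on day 20 it held 318, 279 and 266 TPM, with the least spread relative to its mean of all members on that day (288 ± 27.0 TPM, SD, n = 3). Day 20 exceeded day 0 by a log2 fold change of 3.39 ± 0.39 (adjusted p = 0.00099).

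JUP (ENSG00000173801, chromosome 17, 41754604 to 41786931, minus strand), plakoglobin, serves both desmosomes and adherens junctions. It held 102, 93.2 and 92.2 TPM on day 0 and 120, 93.1 and 97.6 TPM on day 4. It then held 221.4, 229 and 213 TPM on day 9, 264, 245 and 257 TPM on day 11 and 246, 109 and 237 TPM on day 20. It rose from day 4 to day 9 by a log2 fold change of 1.11 ± 0.14 (adjusted p = 0.000308). On day 20 replicate 2 lay apart from the other 2, near the level of the stem cells. The change from day 0 to day 20 did not pass with that replicate (0.85 ± 0.42, adjusted p = 0.171) and did without it (1.21, adjusted p = 0.00361). It also passed with every replicate kept in the fit of all 15 libraries (0.83, adjusted p = 0.0483). Against CTNNB1 (β-catenin, the close relative that shares its place on cadherins), JUP amounted to between 19.9 and 26.6% of the CTNNB1 TPM on days 0 and 4, to between 42.3 and 57.8% on days 9 and 11, and to 61.6, 27.7 and 54.2% in the day 20 replicates. CTNNB1 itself lay between 347 and 608 TPM in all 15 libraries and did not pass the test in any comparison.

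The desmosomal cadherins among the members are DSG2 and DSC2. DSG2 (ENSG00000046604, chromosome 18, 31498177 to 31549008, plus strand), desmoglein 2, the desmoglein of both heart and simple epithelia, held 286, 342 and 243 TPM on day 0 and 215, 290 and 310 TPM on day 4. It held 255, 290 and 478 TPM on day 9, 256, 215 and 385 TPM on day 11 and 150, 101 and 479 TPM on day 20. All neighbouring days overlapped, and the fitted changes lay between −0.31 and 0.35 on the log2 scale, with adjusted p-values of at least 0.295. Its standard error of 0.65 from day 11 to day 20 limits what could be detected there. Against day 0, the fitted change on day 20 was −0.41 ± 0.61 (adjusted p = 0.665), and without day 20 replicate 3 it was −1.54 and passed (adjusted p = 0.0402).

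DSC2 (ENSG00000134755, chromosome 18, 31058840 to 31102522, minus strand), desmocollin 2, the partner of DSG2, lay between 43.0 and 62.8 TPM on days 0 and 4. It held 60.6, 93.0 and 93.4 TPM on day 9, 76.4, 68.7 and 117 TPM on day 11 and 34.7, 47.7 and 98.6 TPM on day 20. A rise from day 4 to day 9 of 0.58 ± 0.17 on the log2 scale passed the test (adjusted p = 0.0222) although the TPM replicates overlapped. It did not pass without day 4 replicate 1 or 3 (adjusted p = 0.0829 and 0.0797), with the lane as a block (0.0667) or in a fit of all 15 libraries (0.321). Day 20 differed from day 0 by a fitted 0.10 ± 0.44 (adjusted p = 0.892).

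Of the 11 other desmosomal genes, 8 could be tested from day 4 to day 9, and 3 rose and 3 fell (24.3% and 24.7% of all genes). DSG4 had the largest fitted rise (4.33 ± 0.77, adjusted p = 0.00199), at no more than 0.94 TPM on day 9, and the cornified envelope gene EVPL the largest fall (−2.61 ± 0.60, adjusted p = 0.00864). Between days 0 and 20, 1 of 7 rose and none fell (16.1% and 11.3% of all genes). The gene that rose was DSC3, a desmocollin of stratified epithelia, at 16.5, 26.6 and 171 TPM on day 20 (log2 fold change 4.19 ± 0.93, adjusted p = 0.0128). By TPM it lay below DSC2 in day 20 replicates 1 and 2 and above it in replicate 3.

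**Figure D4:**
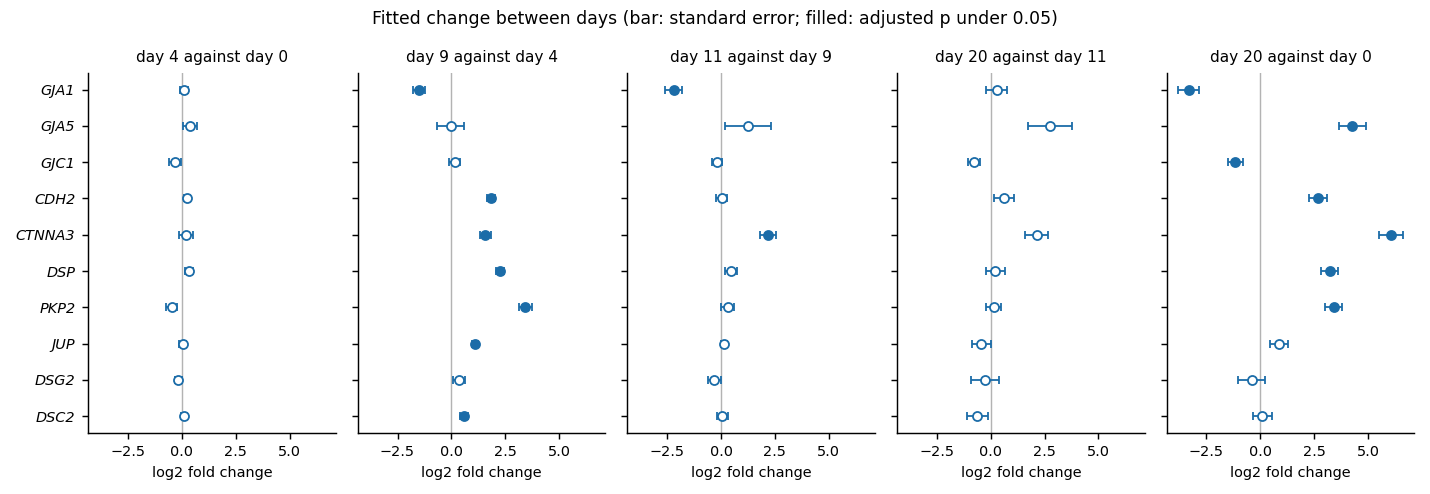
Fitted log2 fold change of the 10 genes in 5 comparisons of days (edgeR, 3 libraries against 3; bars are standard errors, filled points passed an adjusted p of 0.05). From day 4 to day 9, 6 genes rose and GJA1 fell; from day 0 to day 4 and from day 11 to day 20 none passed.

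Counted over the members, most change fell between days 4 and 9. Of the 10 genes, 6 rose (24.3% of the 21252 genes tested rose) and 1 fell (24.7% of genes fell), and the median log2 fold change of the 10 was 0.85, against 0.01 for all genes. Between days 0 and 4 none of the 10 passed, nor did any of the 20964 genes tested with edgeR (0% in either direction), of which 741 genes and 0 members had an unadjusted p under 0.05. DESeq2 called 0 members and 0 genes there as well. From day 9 to day 11, 1 member rose and 1 fell, where 1.39% of 20679 genes rose and 1.00% fell. From day 11 to day 20 none of the 10 passed, where 1.12% of 21398 genes rose and 0.435% fell. There, 3 of the 10 had an unadjusted p under 0.05 (GJA5, GJC1 and CTNNA3), as had 3564 of the 21398 genes. DESeq2 called CTNNA3 higher and GJC1 lower, among 2045 genes that it called. Over the whole course, 5 rose and 2 fell, where 16.1% of 21988 genes rose and 11.3% fell. The last comparison shares its libraries with the others and is not a separate observation.

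The list of 16 stem cell epithelium genes, none of them a member, had 9 that fell and 3 that rose from day 4 to day 9 (24.7% and 24.3% of all genes), with a median log2 fold change of −0.97, against 0.01 for all genes. The 3 that rose were keratins of simple epithelium, which desmoplakin binds: KRT19 (log2 fold change 3.12 ± 0.15, adjusted p = 3.28e-06), KRT8 (3.12 ± 0.20, adjusted p = 1.11e-05) and KRT18. KRT8 stood at 208, 230 and 217 TPM on day 4 and at 1532, 2609 and 1556 TPM on day 9, over the same interval in which DSP, PKP2 and JUP rose. Among the members, DSG2 and GJA1 were already high in the stem cells, JUP, CDH2, DSP, GJC1, DSC2 and PKP2 were present at between 23.4 and 95.8 TPM on average, and GJA5 and CTNNA3 were at 1.58 and 0.96 TPM. All 16 epithelial genes remained at 1 TPM or more in every library of every day. In day 20 replicate 2 this level shows little, because all 8 pluripotency genes and all 11 other desmosomal genes reached it too. The same limit holds in part for day 20 replicate 3, where 8 and 9 of them did, against 6 and 5 in replicate 1. In bulk RNA, an epithelial part of the DSP, PKP2, JUP, DSG2 and DSC2 levels cannot be told apart from a cardiac part.

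The 10 other intercalated disc genes, such as DES and the Xin repeat genes, were counted in the same way. From day 4 to day 9, 3 of 9 rose and 3 fell (24.3% and 24.7% of all genes). From day 9 to day 11, 3 of 8 rose and none fell (1.39% and 1.00% of all genes). From day 0 to day 20, 7 of 9 rose and none fell (16.1% and 11.3% of all genes), with a median log2 fold change of 3.43 against 0.11 for all genes. XIRP1, an actin-binding protein of the disc, rose in all 3 of these comparisons (log2 fold change 5.67, 4.52 and 10.42, adjusted p = 0.000492, 0.0415 and 0.000306) and reached 336, 410 and 87.2 TPM on day 20. SORBS2, an actin-associated adaptor, fell by 3.83 on the log2 scale from day 4 to day 9 (adjusted p = 0.00023) and rose by 5.18 from day 9 to day 11 (adjusted p = 0.0147). MYZAP, a disc protein that binds desmoplakin, was higher on day 20 than on day 0 by a log2 fold change of 6.37 ± 0.56 (adjusted p = 0.000374). The 10 cardiomyocyte markers summed to between 24.9 and 32.6 TPM on day 0 and between 26.0 and 26.6 TPM on day 4. Their sum lay between 463 and 1704 TPM on day 9 and between 5541 and 23936 TPM on day 11. From day 4 to day 9, when DSP, PKP2, JUP and CDH2 rose, 7 of these 10 markers rose and none fell (24.3% and 24.7% of all genes). The yolk sac and hepatic endoderm markers summed to at most 14.2 TPM on day 4 and to between 504 and 1556 TPM on day 9. The part of any cell type in the rise of these members was not tested.

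The day 20 replicates differed among themselves in the members as in the cell type markers. Replicate 2 had the highest GJA5, CTNNA3 and GJC1, and the lowest DSP, JUP and DSG2. Replicate 3 had the highest DSG2, DSC2 and GJA1, and the lowest CDH2, CTNNA3 and GJA5. The 10 cardiomyocyte markers, all at 1 TPM or more, summed to 25936, 27084 and 6491 TPM in replicates 1, 2 and 3. The 16 stem cell epithelium genes summed to 4305, 1396 and 4710 TPM, with CDH1 at 108, 17.8 and 287 TPM. KRT8 alone held 1120, 322 and 1192 TPM of that sum, against at most 189 TPM on day 0. From day 0 to day 20, 7 of the 16 genes fell and 1 rose (11.3% and 16.1% of all genes). The 12 yolk sac and hepatic endoderm markers summed to 24262, 957 and 27352 TPM, and the 8 fibroblast and mesenchymal markers to 3211, 1219 and 24486 TPM. The 7 epicardial and mesothelial markers summed to 121, 156 and 239 TPM, and the 9 endothelial markers to 110, 96.7 and 219 TPM. The endothelial markers did not share 1 order: TEK held 15.9, 16.8 and 141 TPM, whereas CDH5 held 8.04, 5.89 and 3.35 TPM. The part of these other cell types in the member values was not tested.

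**Figure D5:**
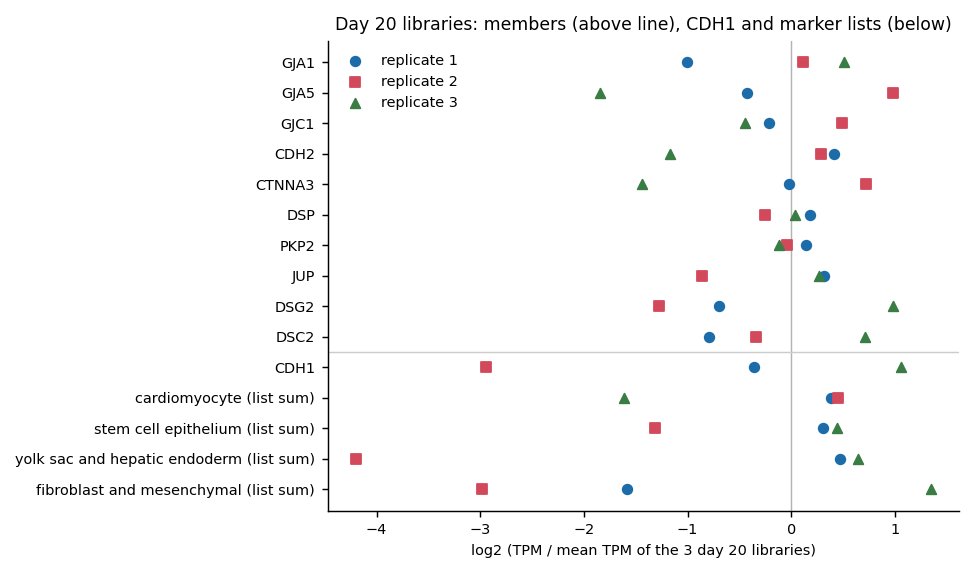
Each day 20 library as log2 of its TPM over the mean of the 3, for the 10 members (above the line), CDH1 and the summed TPM of 4 marker lists (below). CTNNA3, GJA5, CDH2 and the cardiomyocyte sum were lowest in replicate 3, while DSG2, JUP, CDH1 and the endoderm sum were lowest in replicate 2.

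For each member, the 2 genes with the most similar course were found among 16220 protein-coding genes by the root mean square difference of centred log2 CPM over the 15 libraries, given here as a description with no test. A member that changed little can have small distances for that reason, so their order does not rank how well the courses match. The root mean square spread of a member about its own mean lay between 0.509 and 0.677 for GJC1, DSC2, JUP and DSG2. It lay between 1.085 and 1.72 for CDH2, DSP and PKP2. JUP had the smallest distances, to STX5 (0.144) and UBE2R2 (0.174). Next were GJC1 with E2F3 (0.226) and POGLUT1 (0.242), DSC2 with MPZL1 (0.249) and MAPK12 (0.267) and DSP with CRTC3 (0.263) and ZCCHC24 (0.302). DSG2 lay nearest to AXL (0.28) and PALS2 (0.304), CDH2 to PPP1R3E (0.342) and FITM2 (0.352), and PKP2 to RGL1 (0.374) and SETD7 (0.383). CTNNA3, whose own root mean square spread about its mean was 2.28, lay nearest to MTUS2 (0.39) and MITF (0.515). GJA1, with a spread of 1.70, lay nearest to UGT8 (0.454) and PLPP2 (0.589), which went from 52.5 to 6.30 TPM and from 45.0 to 2.17 TPM between days 0 and 20. GJA5, with a spread of 1.79, had the largest distances, to ENTREP1 (0.717) and GPR17 (0.734). No member was among the 2 nearest genes of another member.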

How the data were processed

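Bulk RNA-seq libraries of H1 cells (5 days, 3 replicates each) were grouped by their labels. The members and gene lists were chosen with earlier results of these data known. The authors aligned reads with STAR 2.5.2b to GRCh38 (Ensembl 79), dropped genes for ribosomal RNA and of the mitochondrion, and deposited featureCounts 1.5.1 read counts per gene, not normalized, whose strand setting is not stated. The authors also deposited TPM, computed from these counts with gene lengths that are not stated. The deposited sample table gives the RNA integrity number (a score), the uniquely mapped fraction, which ran from 35.0 to 86.0 percent in the deposited values, and the lane.

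Counts were tested with edgeR 4.0.16 (filterByExpr with minimum count 10 and minimum total 15, TMM, robust quasi-likelihood test, two-sided, R 4.3.3), each fit holding the 6 libraries of 2 days, and p-values were adjusted by Benjamini-Hochberg across every gene in the fit, with calls at 0.05. The standard error is the log2 fold change over the square root of F. Replicate numbers were labels or accession order and paired no samples; with 3 libraries a group, p-values measure the spread between these libraries. In simulated data for day 11 against day 9 with 200 of 20679 genes changed 4-fold or 16-fold, edgeR recovered 174, with 9.38% false among 192 calls. DESeq2 recovered 184, with 22.0% false among 236 calls, and limma recovered 176, with 13.3% false among 203 calls. Shares and ratios from TPM were compared by exact permutation tests (scipy 1.17.1). Depth sets the precision of low genes: on day 0 GJA5 and CTNNA3 had between 3.23 and 15.8 reads per kilobase. Alternatives were DESeq2 1.42.0, upper-quartile and library-size scaling, no filter, all 15 libraries in one fit, limma 3.58.1 on log2(TPM + 1) or log2(TPM + 0.1), plate or lane as a block and each replicate left out. Symbols, coordinates and exon overlaps are from GENCODE v44 (GRCh38), and promoters are from RefSeq. Exons of CDH2 (307 bases), DSG2 (186 bases) and DSP (81 bases) also overlap noncoding genes on the opposite strand.

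Named genes were all members, up to 2 called genes of largest change per list and comparison, the 2 protein-coding genes nearest to each member in pattern, and CDH1, CTNNB1 and GJA4. DES, KRT18, TEK, GJD4, the GJA3 shares of day 20 and the day 11 values of CDH5 and PECAM1 were named after their values were seen. The single-cell libraries were not analysed here.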

Additional observations from a re-analysis of the deposited data

How the results depend on the processing

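The rises of DSP, PKP2, JUP, CDH2 and CTNNA3 and the fall of GJA1 from day 4 to day 9, and the rises of CDH2, CTNNA3, DSP, GJA5 and PKP2 and the fall of GJA1 from day 0 to day 20, kept their direction and passed the threshold under every alternative run. The cause of the other shifts was not tested. Members called from day 9 to day 11 numbered 1 with no filter (GJA1 lost) and 1 with limma on log2(TPM + 1) (CTNNA3 lost), and between 0 and 1 with a replicate left out. From day 11 to day 20 they numbered 2 with DESeq2 and 1 with all 15 libraries in one fit, and between 0 and 1 with a replicate left out.

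Counts over all genes moved further. From day 0 to day 4 they reached 64 with no filter. From day 4 to day 9 they were 6209 with all 15 libraries. From day 9 to day 11 they were 1595 with DESeq2, 1016 with no filter and between 0 and 573 with a replicate left out, against 495. From day 11 to day 20 they were 2045 with DESeq2, 3132 with all 15 libraries, 137 with the lane as a block and between 0 and 510 with a replicate left out, against 332. From day 0 to day 20 they were 10785 with all 15 libraries and between 3128 and 8993 with a replicate left out, against 6027.

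The plate number was fitted as a replicate block where 2 days shared 2 plates. From day 9 to day 11 the block gave 3 members (DSP joined GJA1 and CTNNA3) and 1971 genes, with DSG2 at 0.17 and CDH2 at −0.063, and from day 11 to day 20 it gave 0 members and 3 genes. After removal of day means, libraries sharing a plate had, across genes, an r of 0.102 and 0.301 for days 9 and 11 and between −0.144 and 0.347 for days 11 and 20, so the numbers were not taken as pairing. The other comparisons shared fewer than 2 plates and had no fit with this block. With the lane as a block, day 9 against day 4 gave 6 members and 9196 genes.

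Fitted changes near 0 changed sign without passing the threshold. With library-size scaling GJA5 was 0.014 from day 4 to day 9 and CDH2 −0.0068 from day 9 to day 11, where upper-quartile scaling gave CDH2 −0.0062 and DSC2 −0.0056. With no filter DSC2 was −0.082 from day 0 to day 20. With a replicate left out, the log2 fold change from day 0 to day 4 lay between −0.010 and 0.26 for GJA1, −0.54 and 0.064 for GJC1, −0.10 and 0.14 for JUP and −0.061 and 0.49 for CTNNA3. From day 4 to day 9 it lay between −0.078 and 0.36 for GJC1 and −0.98 and 0.46 for GJA5. From day 9 to day 11 it lay between −0.25 and 0.21 for DSC2, −0.25 and 0.22 for CDH2, −0.39 and 0.050 for GJC1, −0.61 and 0.026 for DSG2 and −0.85 and 2.17 for GJA5. From day 11 to day 20 it lay between −0.046 and 0.38 for PKP2, −0.26 and 0.67 for GJA1, −0.011 and 0.54 for DSP and −1.38 and 0.15 for DSG2. From day 0 to day 20 it lay between −1.54 and 0.014 for DSG2, which reached the threshold at −1.54, and −0.66 and 0.34 for DSC2. The GJA1 share of connexin TPM differed by −0.070 to 0.65 percentage points between days 4 and 0, and the log2 ratio of CDH2 to CDH1 by −0.50 to 0.082 between days 4 and 0 and by −0.90 to 1.79 between days 20 and 11.

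With 3 libraries a day, standard errors from day 11 to day 20 ranged from 0.28 for GJC1 to 1.02 for GJA5, which bounds what could be detected. Scaling moved the median log2 fold change of all genes from day 0 to day 20 from 0.11 to 0.23 with library size alone.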
